A study of Homo sapiens with 12 samples.

Results

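Broad H3K4me3 domains were taken as runs of 5 or more counted H3K4me3 regions on a chromosome, sorted by start, in which each region began at most 1000 bp after the end of the region before it. The rule found 232 runs, which held 1743 of the 36400 H3K4me3 regions, or 4.79%. Joined in the same way, the whole table gave 23964 stretches, of which 23732 held 1 to 4 regions. The rule used positions only, so the counts in the regions took no part in it. H3K4me3, trimethylation of lysine 4 of histone H3, was measured by chromatin immunoprecipitation and sequencing in SA, SPH and METS, which are derivatives of the human colorectal cancer line DLD1, and in DLD1 itself. SA is described as mesenchymal and came from colonies in soft agar, SPH is described as mesenchymal and came from colonospheres, METS is described as epithelial and came from a lung metastasis of a xenograft, and parental DLD1 carries the same description, epithelial. Serum-containing McCoy's 5A medium was used for all 4 lines. H3K27me3 and H3K79me3 were measured in the same 4 lines, with 1 library per line and mark, so each derivative is known here from a single culture of a single line and no value has a replicate.

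H3K4me3 is laid by the SET1 and MLL methyltransferase complexes and marks the promoters of active or poised genes. At most promoters it forms a narrow peak beside the start of transcription, whereas at some genes, many of them regulators of cell identity, it spreads over several kilobases. H3K27me3 is laid by the Polycomb repressive complex PRC2 and marks silenced genes, and H3K79me3 is laid by DOT1L along genes being transcribed.

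The label of broad promoter domains held for only part of the runs. By position and by overlap with gene bodies they fell into 4 classes, a division made after values were seen. In the class called arm runs here, 136 runs with 779 regions lay on the chromosome arms, and 109 of them overlapped a gene-body interval of the H3K27me3 table, which holds none for 13 of the others because of their chromosome. A further 69 runs with 667 regions are called gap-side runs. By definition they overlapped no gene-body interval and lay within 5 Mb of the longest stretch of their chromosome that held no counted region. No annotation of the genome build used, hg19, was given. That stretch stands in here for the unsequenced centromere or, in some chromosomes, the unsequenced short arm. It may hold more than these, as on chromosome 1, where it spans 21050089 bp. The lack of a gene-body interval was thus a condition of the class and is no result. It could be looked up for the 60 gap-side runs on chromosomes that the H3K27me3 table covers. The other 9, on chromosomes 20, 21 and X, could not be looked up. The other runs were 26 on chromosome Y and 1 on the mitochondrial genome. The longest arm run held 13 regions, the longest gap-side run 27, and the longest of all, on chromosome Y, 51.

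The classes also differed in how densely they were marked. Arm runs had a median width of 4214.5 bp and a median of 34.1 CPM per kb in DLD1, with an interquartile range of 22.9 to 45.8 CPM per kb. Gap-side runs were wider, at a median of 7301 bp, and sparser, at 5.14 CPM per kb in DLD1 with an interquartile range of 2.93 to 7.63. Runs on chromosome Y had a median of 3.66 CPM per kb. CPM stands for counts scaled to a library total of 1e6, with the total taken over all regions, and a run's CPM is the sum over its regions.

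**Figure D1:**
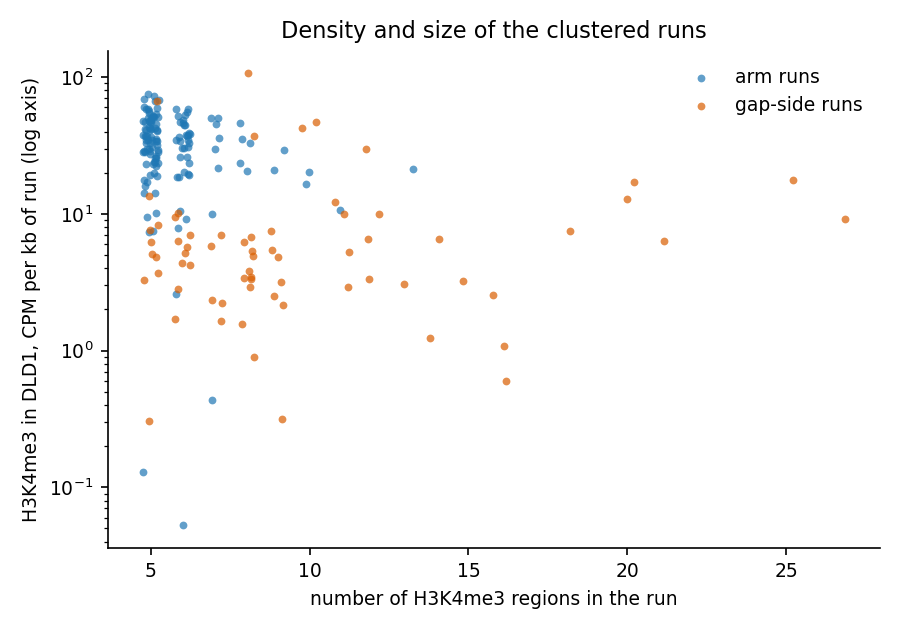
Density of H3K4me3 in DLD1, in CPM per kb of run on a log axis, against the number of regions in the run, for arm runs and gap-side runs (1 point per run). Gap-side runs reach 27 regions at low density, with a median of 5.14 CPM per kb, while arm runs hold at most 13 regions at a median of 34.1 CPM per kb.

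Just inside the size threshold, the 80 arm runs of 5 regions had a median of 136 CPM in DLD1 over 3809 bp, and just outside it the 347 arm stretches of 4 regions had 126 CPM over 2865 bp. Per kb the runs of 5 regions were the sparser ones, at a median of 35.0 CPM per kb in DLD1, against 43.4 CPM per kb in the stretches of 4. Gap-side runs of 5 regions had a median of 5.65 CPM per kb in DLD1, against 4.96 CPM per kb in gap-side stretches of 4 regions.

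Genes were named from the lengths and order of the H3K27me3 gene-body intervals, which gave names to 17060 of the 50000 intervals and to 60 of the 136 arm runs. In 36 arm runs a named gene of known strand starts inside the run, in all 38 genes, of which 26 are protein-coding and 12 are long noncoding RNA genes. The sequences that follow are RefSeq promoter windows of GRCh38.p14, from 250 bases before to 50 after the start, for genes placed with their start inside runs described later, with each CG dinucleotide in capitals. They are shown because CG-rich DNA is where H3K4 methyltransferases are commonly recruited, and because these windows differ in their CG content.
ZNF608 promoter, chr5:124748775-124749074, minus strand: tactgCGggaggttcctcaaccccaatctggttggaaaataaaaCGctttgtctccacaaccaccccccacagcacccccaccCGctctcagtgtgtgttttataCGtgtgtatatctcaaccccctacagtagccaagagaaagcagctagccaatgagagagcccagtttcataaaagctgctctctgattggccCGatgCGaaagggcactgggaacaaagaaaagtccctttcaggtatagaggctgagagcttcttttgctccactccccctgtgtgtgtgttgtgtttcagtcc
MIR200CHG promoter, chr12:6962995-6963294, plus strand: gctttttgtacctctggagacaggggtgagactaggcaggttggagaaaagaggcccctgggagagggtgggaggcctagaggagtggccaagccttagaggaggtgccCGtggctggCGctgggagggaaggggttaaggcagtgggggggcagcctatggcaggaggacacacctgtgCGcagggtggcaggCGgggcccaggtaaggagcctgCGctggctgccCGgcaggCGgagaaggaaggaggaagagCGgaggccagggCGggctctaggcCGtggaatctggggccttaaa
CRNDE promoter, chr16:54928837-54929136, minus strand: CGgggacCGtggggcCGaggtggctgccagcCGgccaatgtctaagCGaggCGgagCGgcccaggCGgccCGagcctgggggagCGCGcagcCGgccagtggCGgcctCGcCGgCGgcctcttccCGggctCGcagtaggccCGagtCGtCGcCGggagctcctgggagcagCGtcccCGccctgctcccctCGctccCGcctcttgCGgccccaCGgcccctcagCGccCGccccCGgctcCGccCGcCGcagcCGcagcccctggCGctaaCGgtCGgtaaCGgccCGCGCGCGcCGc
GATA6-AS1 promoter, chr18:22168919-22169218, minus strand: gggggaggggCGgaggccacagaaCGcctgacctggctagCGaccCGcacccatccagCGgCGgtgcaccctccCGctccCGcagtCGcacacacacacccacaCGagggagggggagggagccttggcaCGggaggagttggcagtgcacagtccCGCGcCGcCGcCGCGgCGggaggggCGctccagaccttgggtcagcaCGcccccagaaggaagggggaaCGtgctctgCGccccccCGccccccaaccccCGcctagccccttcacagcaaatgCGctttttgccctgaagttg
The ZNF608 window held 6 CG dinucleotides, that of MIR200CHG 10, that of GATA6-AS1 25 and that of CRNDE 44. Of these 4 genes, GATA6-AS1 has an interval whose start was matched to RefSeq's, while ZNF608, MIR200CHG and CRNDE were placed without that match, so the hg19 start may not be the one shown. The 13 genes with a matched start, which do not include those 3, have 17 promoter windows. ANG and DIPK2A have several windows each, so not every window lies at the matched start. These 17 windows had a median of 26 CG dinucleotides, against 14 over all 35116 windows and 21 over the 22199 of protein-coding genes. At least 20 CG dinucleotides were found in 76.5% of these 17 windows and in 41.2% of all windows. The count of letters is a description and says nothing of which protein binds there.

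The MIR200CHG run also spans MIR200C and MIR141, precursors of microRNAs known for holding back ZEB1 and ZEB2, the repressors of epithelial genes. Their mature sequences from RefSeq are shown with the seed, bases 2 to 8, in capitals, since the seed sets which targets are recognised. The seeds of this pair differ at 1 base.
hsa-miR-200c-3p: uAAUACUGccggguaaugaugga
hsa-miR-141-3p: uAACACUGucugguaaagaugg

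The 4 H3K4me3 libraries held 7753937 counts in SA, 7153391 in SPH, 7303186 in METS and 6722508 in DLD1. The H3K27me3 libraries held 15605814 to 20410151 counts and the H3K79me3 libraries 6165169 to 7521451. Intervals beside ratios are exact 95% Clopper-Pearson intervals and cover counting error only, since copies made by PCR are not marked and no replicate was given. No input library was analysed here, so more mark per copy of a sequence, more copies of it and a larger share of cells carrying the mark cannot be told apart. The 3 comparisons with DLD1 share its library. None of the 9 epithelial markers and 5 markers of other cell types was named here with a known strand. The 2 of 8 mesenchymal markers that were had no H3K4me3 stretch near their start, so the described cell characters could not be checked at these runs.

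The domains on the arms, most of them over genes, stayed near their DLD1 level in every derivative, and those beside the gaps were higher in SPH and METS. Summed over all runs, H3K4me3 took 2.61% of the library in SA, 3.03% in SPH, 2.88% in METS and 2.61% in DLD1. The arm runs took 2.04% in SA, 2.06% in SPH, 1.98% in METS and 1.99% in DLD1. The gap-side runs took 0.494% in SA, 0.826% in SPH, 0.766% in METS and 0.539% in DLD1. Runs on chromosome Y took 0.071% in SA, 0.129% in SPH, 0.121% in METS and 0.076% in DLD1. The mitochondrial run took 0.0101% in SA, 0.0216% in SPH, 0.016% in METS and 0.0084% in DLD1. The higher shares of SPH and METS were thus found mostly in the gap-side runs and less on chromosome Y, with the arm runs nearly level across the 4 lines.

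With 0.5 CPM added to both lines, and over the 230 runs with counts, 2 runs were at least 1.5-fold higher in SA than in DLD1 and 2 were lower (4 and 2 with TMM factors), where the same rule called 3.21% of all 23515 stretches with counts higher and 9.76% lower. In SPH, 73 runs were higher and 2 lower, against a background of 11.5% higher and 9.95% lower. In METS, 54 runs were higher and 1 lower, against 10.2% and 6.12%. The counts of higher runs in SPH and METS stood above the background share, and the other counts stood below it. No run in METS was past 1.5-fold from both SA and SPH in the same direction, while 8.64% of all stretches were higher and 2.47% lower by that rule.

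By place, most of the higher runs were gap-side runs or runs on chromosome Y. Gap-side runs made up 47 of the 73 in SPH and 31 of the 54 in METS, and runs on chromosome Y made up 19 in SPH and 18 in METS. Arm runs made up 6 in SPH and 4 in METS, against a background among arm stretches of 10.4% higher in SPH and 9.13% in METS. Lower arm runs numbered 1 in SA, 2 in SPH and 1 in METS, against 9.62%, 10.1% and 6.22% of arm stretches in those lines, and higher arm runs in SA numbered 2, against 3.09%. Arm runs thus passed the fold threshold less often than arm stretches as a whole, which include many short stretches with few counts.

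**Figure D2:**
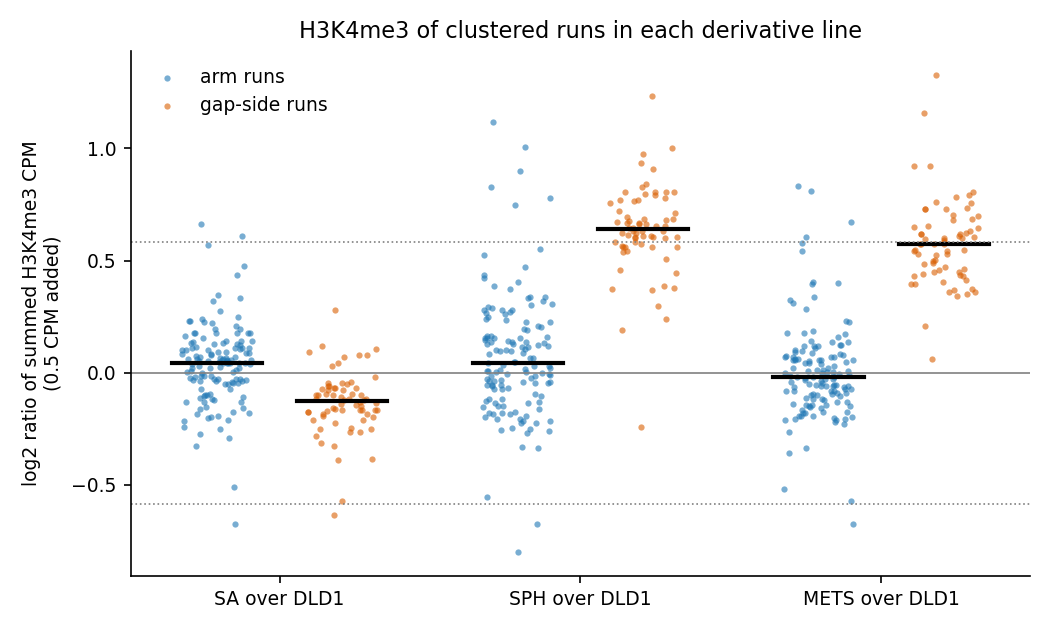
Log2 ratio of H3K4me3 CPM in SA, SPH and METS over DLD1 for each run (1 point per run), arm runs left of gap-side runs, with the median as a black bar and 1.5-fold as dotted lines. The arm medians are 0.05 in SA, 0.04 in SPH and -0.02 in METS, and the gap-side medians are -0.13 in SA, 0.64 in SPH and 0.57 in METS.

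The arm runs varied little as a class. Their median log2 ratio to DLD1 was 0.05 in SA, 0.04 in SPH and -0.02 in METS. Within 25% of DLD1 (a higher value at most 25% above the lower) in all 3 derivatives were 104 of the 135 arm runs with counts, a limit chosen after values were seen. The same held for 42.1% of all arm stretches and for 69.5% of arm stretches of 2 to 4 regions, and for 1 of 68 gap-side runs with counts. Short stretches hold fewer counts, so their ratios carry more counting error.

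Among the arm runs with the most H3K4me3, PCGF2, a subunit of a Polycomb repressive complex PRC1, had 299 CPM in SA, 323 in SPH, 285 in METS and 295 in DLD1 over the 7 regions at chr17:36903824-36909664. The run at PTCH1, the receptor for Hedgehog ligands, had 291 CPM in SA, 282 in SPH, 269 in METS and 291 in DLD1 over 8 regions. Both were nearly level across the lines. The run at SIN3A, the scaffold of a histone deacetylase complex, had 290 CPM in SA, 265 in SPH, 265 in METS and 273 in DLD1. The largest run by number of regions on an arm, 13 regions at chr14:38057073-38068343 in an interval where RefSeq places FOXA1 and TTC6, had 263 CPM in SA, 260 in SPH, 231 in METS and 238 in DLD1. FOXA1 is a pioneer transcription factor of endodermal epithelia.

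Growth regulators followed the same pattern. SMAD7, an inhibitor of TGF-beta signalling, had 190 CPM in SA, 181 in SPH, 180 in METS and 184 in DLD1 over 6 regions at chr18:46474345-46479221. Runs at SPRY2, a feedback inhibitor of receptor tyrosine kinase signalling, SOX9, a transcription factor of crypt progenitors, and MYC, a driver of proliferation, had ratios to DLD1 between 0.901 and 1.12 in the 3 derivatives. The run at SOX9 had 183 CPM in SA, 158 in SPH, 163 in METS and 175 in DLD1. At MYC the values were 158 CPM in SA, 183 in SPH, 148 in METS and 164 in DLD1. In each of these runs the derivatives differed from DLD1 in no common direction.

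By the gene lists used, broad runs were an exception at single genes, and most listed genes could not be located. Located means here that the gene was named and its strand known, so that a start could be placed. A start inside a run was found for 1 of 4 located genes of intestinal identity (GATA6), 1 of 8 tumour suppressors (SMAD7), 1 of 9 immediate early and growth response genes (SPRY2) and 2 of 6 HOX genes (HOXA6 and HOXA7). None was found among 5 located genes of the epithelial to mesenchymal transition, 7 of the Wnt pathway and crypt, 14 homeobox and paired-box genes of the IRX, PAX, LHX, NKX, DLX and related families or 22 ubiquitous genes. Over all located protein-coding genes it was 26 of 5620, or 0.463%. MYC, SOX9, IRX5, HOXB3 and HOXB5 are on the lists and have intervals that overlap a run. They had no known strand and are left out of these counts.

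Only a few gene runs passed 1.5-fold, and of these the run at chr12:6479914-6485310 had the highest ratios among those with over 100 counts in each line. It held 6 regions and lay between the named genes RN7SL391P and CD27-AS1, an interval where RefSeq has SCNN1A, a subunit of the epithelial sodium channel, and LTBR, the receptor for lymphotoxin beta. The run had 67.4 CPM in SA, 92.7 in SPH, 74.6 in METS and 42.4 in DLD1. All 3 derivatives were above DLD1, with SPH highest. The ratio to DLD1 was 1.59 (1.37 to 1.84) in SA, 2.19 (1.9 to 2.52) in SPH and 1.76 (1.52 to 2.04) in METS. All 6 regions were higher than in DLD1 in each derivative, so the difference spanned the run. The fifth region, which was the tallest, had 26.1 CPM in SA, 35.9 in SPH, 30.3 in METS and 14.7 in DLD1.

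The other run higher in all 3 derivatives lay at chr17:79366155-79374651, with 10 regions over 8497 bp, and holds MIR4740 inside BAHCC1, which encodes a protein with a BAH domain that binds H3K27me3. It had 213 CPM in SA, 234 in SPH, 223 in METS and 139 in DLD1. The 3 derivatives lay close together and above DLD1, with ratios of 1.53 (1.41 to 1.66) in SA, 1.68 (1.55 to 1.82) in SPH and 1.6 (1.47 to 1.73) in METS. All 10 regions were higher than in DLD1 in SA and in SPH, and 9 of them in METS. The difference was uneven along the run. The region with the most counts, the second, had 62.7 CPM in SA, 59.6 in SPH, 68.1 in METS and 54.6 in DLD1, while the fourth had 29.8 in SA, 36.5 in SPH, 30.9 in METS and 13.1 in DLD1.

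ZNF608, a gene of a zinc finger protein, carried the arm run with named genes that was higher in SPH alone at 1.5-fold. Its 5 regions at chr5:124082116-124085215 had 83.3 CPM in SA, 137 in SPH, 66.1 in METS and 79.6 in DLD1. SPH stood apart, SA was near DLD1 and METS was below it. The ratio to DLD1 was 1.05 (0.932 to 1.18) in SA, 1.72 (1.55 to 1.91) in SPH and 0.831 (0.733 to 0.942) in METS. All 5 regions were higher in SPH than in DLD1 and all 5 were lower in METS. Its second region had 16.0 CPM in SA, 35.8 in SPH, 12.05 in METS and 15.3 in DLD1.

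WNT11, a ligand of noncanonical Wnt signalling, lay in the run that was lower in SPH at chr11:75917569-75921773. Its 5 regions together had 66.3 CPM in SA, 54.1 in SPH, 84.1 in METS and 94.5 in DLD1. Both mesenchymal lines were below both epithelial lines. The ratio to DLD1 was 0.702 (0.624 to 0.79) in SA, 0.573 (0.503 to 0.651) in SPH and 0.89 (0.795 to 0.996) in METS. The regions did not move together: the first had 19.3 CPM in SA, 19.3 in SPH, 19.7 in METS and 21.3 in DLD1, and the third had 9.03 in SA, 3.49 in SPH, 9.58 in METS and 20.4 in DLD1. The fifth had 19.6 CPM in SA, 12.6 in SPH, 39.8 in METS and 30.6 in DLD1, so METS was the highest line there.

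**Figure D3:**
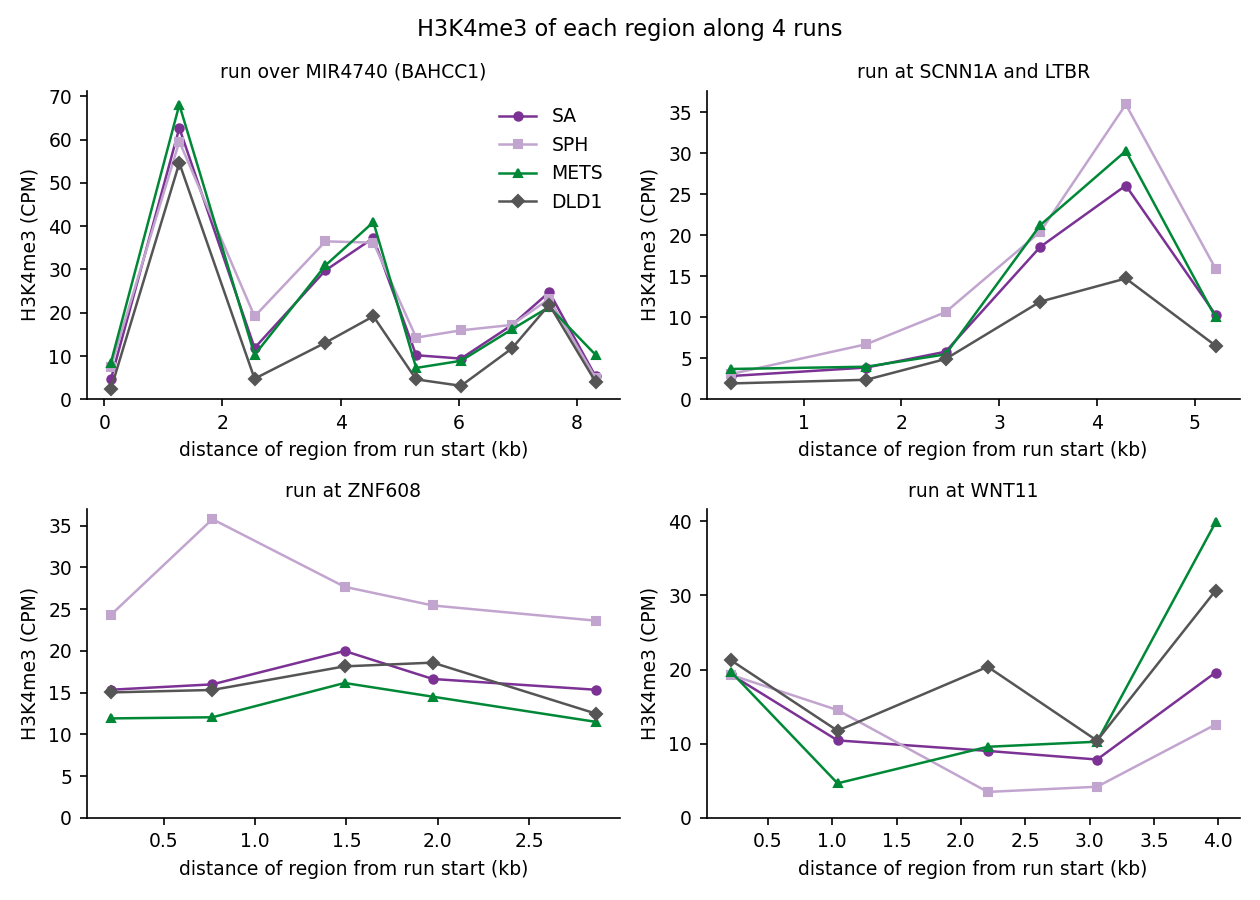
H3K4me3 CPM of each region against the distance of its centre from the start of the run, in kb, in SA, SPH, METS and DLD1 for 4 arm runs. At the MIR4740 and SCNN1A to LTBR runs the 3 derivatives lie above DLD1 in nearly every region, at ZNF608 SPH lies above the other lines in all 5 regions, and at WNT11 the lines lie together in the first region and part in the others.

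Below 1.5-fold, several arm runs parted the lines by described character. AJUBA, which encodes a LIM-domain protein of cell junctions, had 198 CPM in SA, 197 in SPH, 167 in METS and 169 in DLD1 over 5 regions at chr14:23448505-23452472. The run at chr18:3447409-3452329, in an interval where RefSeq has TGIF1, a homeobox repressor of TGF-beta target genes, had 217 CPM in SA, 228 in SPH, 182 in METS and 190 in DLD1. In both, SA and SPH were close together and above METS and DLD1. The run at chr5:60626426-60629828, in an interval of ZSWIM6, had 227 CPM in SA, 204 in SPH, 252 in METS and 257 in DLD1, the opposite order.

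Single lines stood apart elsewhere. DLGAP1, a scaffold of the postsynaptic density, had 30.4 CPM in SA, 43.1 in SPH, 21.4 in METS and 32.0 in DLD1 at chr18:3602090-3606424, lowest in METS at a ratio of 0.668 (0.54 to 0.825) and highest in SPH. The 8 regions at chr17:8023745-8030826, in an interval of HES7, a repressor of the Notch pathway, had 208 CPM in SA, 226 in SPH, 220 in METS and 251 in DLD1, so DLD1 was the highest line. NR2F2, an orphan nuclear receptor, lay in a run of 8 regions at chr15:96873207-96880908 with 186 CPM in SA, 198 in SPH, 183 in METS and 180 in DLD1, and the run of 7 regions before it had 72.2 CPM in SA, 87.4 in SPH, 59.2 in METS and 64.4 in DLD1. SPH was highest in both.

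The remaining arm runs past 1.5-fold carried little signal or no gene. A run of mitochondrial pseudogenes at chr1:564455-570313 had 26 counts in SA, 40 in SPH, 30 in METS and 17 in DLD1. A run at chr1:224199570-224203890, with no gene body, had 9.5 CPM in SA, 21.2 in SPH, 20.3 in METS and 11.2 in DLD1, at a density of 2.58 CPM per kb in DLD1 like that of gap-side runs. Another, of 11 regions at chr2:133022499-133030901 with no gene body, had 75.7 CPM in SA, 160 in SPH, 119 in METS and 89.7 in DLD1. The run of 5S ribosomal RNA genes at chr1:228775167-228780804 had 2 counts in DLD1 and 0 in each derivative, too few for a ratio.

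Several runs lay in the HOX clusters. Of 3 runs in the HOXB cluster, whose homeobox factors set position along the body axis, the run at chr17:46667154-46672137 over HOXB3, HOXB5 and HOXB-AS3 had 151 CPM in SA, 199 in SPH, 107 in METS and 153 in DLD1. SPH was highest and METS lowest, with ratios to DLD1 of 1.29 in SPH and 0.696 in METS. The run at chr17:46678774-46682984 had 164 CPM in SA, 199 in SPH, 144 in METS and 138 in DLD1, with SPH again highest. The run at chr17:46651670-46656653 had 50.8 CPM in SA, 49.2 in SPH, 37.7 in METS and 37.5 in DLD1, so both mesenchymal lines were above both epithelial ones.

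In the HOXA cluster the lines lay closer together. The run at chr7:27153070-27158038 had 45.7 CPM in SA, 50.6 in SPH, 39.3 in METS and 45.4 in DLD1, with SA and DLD1 nearly equal. The run at HOXA6 had 134 CPM in SA, 147 in SPH, 155 in METS and 125 in DLD1, with the highest ratio, 1.24 (1.13 to 1.36), in METS. The run at HOXA7 had 50.4 CPM in SA, 50.0 in SPH, 50.5 in METS and 57.9 in DLD1, so the derivatives were level with each other and below DLD1. HOTTIP, a long noncoding RNA gene at the end of the cluster, had 98.5 CPM in SA, 97.7 in SPH, 99.3 in METS and 102 in DLD1. TFAP2A, a transcription factor of ectoderm and neural crest, had 129 CPM in SA, 104 in SPH, 157 in METS and 154 in DLD1 over 5 regions at chr6:10411729-10415305. SPH was the lowest line there, at a ratio of 0.679 (0.617 to 0.747).

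The run over MIR200C and MIR141 at chr12:7069898-7074936, whose microRNA sequences are given above, had 116 CPM in SA, 108 in SPH, 107 in METS and 103 in DLD1 over 6 regions. The ratio to DLD1 was 1.13 (1.02 to 1.251) in SA, 1.05 (0.944 to 1.16) in SPH and 1.04 (0.937 to 1.15) in METS. The intervals of SPH and METS included equality with DLD1, and that of SA lay just above it. The tallest region, at chr12:7072396-7072889, held most of the signal, with 78.4 CPM in SA, 77.03 in SPH, 75.7 in METS and 75.7 in DLD1. GATA6, a transcription factor of the gut epithelium, had 148 CPM in SA, 161 in SPH, 127 in METS and 140 in DLD1 over the 6 regions of its run at chr18:19746244-19750038.

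Set by described cell character, 38 arm runs had SA and SPH both above METS and DLD1 and 18 had both below, against 19.8% and 24.1% of arm stretches and 19.3% and 23.7% of all stretches. No run of the other classes parted the lines that way. By edgeR's quasi-likelihood test with Benjamini-Hochberg adjustment over all 23515 stretches, 0 of 230 runs passed 0.05, against a background of 0.0% of stretches higher and 0.0298%, or 7 stretches, lower in SA and SPH. At an unadjusted p under 0.05 there were 15 runs higher and 5 lower, and DESeq2 also called 0, with 9 higher and 4 lower at an unadjusted p under 0.05. Among all 23515 stretches, in either direction, 2717 had an unadjusted p under 0.05 in edgeR and 1417 in DESeq2. The result rests on the lines chosen: edgeR fits without a line called more, most of all without SA. The calls without SA rose among all stretches as well as among runs. In such fits the line left alone is assumed to vary like the pair, and all these p-values cover only the spread between 4 lines of 1 origin.

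The smallest adjusted p among the runs named here came from WNT11, with a log2 difference of -0.57 and an adjusted p = 0.115 in edgeR. TFAP2A followed, at -0.41 and 0.155, then a HOXB run at chr17:46678774-46682984, at 0.36 and 0.187, and ZNF608, at 0.59 and 0.207. None passed the threshold, and the run at SCNN1A and LTBR had an adjusted p = 0.415 with a log2 difference of 0.45.

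Gap-side runs were higher in SPH and METS almost throughout. Their median log2 ratio to DLD1 was -0.13 in SA, 0.64 in SPH and 0.57 in METS. Of the 69 runs, 67 were above DLD1 in SPH and 68 in METS, while 59 were below it in SA. The run that was lower in SPH, 5 regions at chr8:43092763-43097129, had 66.8 CPM per kb in DLD1. That was above the class median of 5.14 CPM per kb, but it was not the densest gap-side run. The same class of stretch with only 1 to 4 regions passed 1.5-fold upward in 27.3% of cases in SPH and 27.7% in METS, and in 5.61% in SA. Downward they passed it in 13.0% of cases in SA, 8.04% in SPH and 4.67% in METS, against 1 run in SA and 0 in SPH and METS.

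The gap-side run with the most signal, 8 regions at chr1:121478492-121485418, had 681 CPM in SA, 1185 in SPH, 1009 in METS and 738 in DLD1. The ratio to DLD1 was 0.923 (0.887 to 0.959) in SA, 1.61 (1.55 to 1.66) in SPH and 1.37 (1.32 to 1.42) in METS. SPH and METS were high and SA was just below DLD1. The longest gap-side run, 27 regions at chr2:92305497-92326188, had 182 CPM in SA, 304 in SPH, 284 in METS and 191 in DLD1. Its order of lines was the same, with ratios of 1.59 (1.49 to 1.71) in SPH and 1.49 (1.39 to 1.6) in METS.

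In other long gap-side runs SPH and METS were again above DLD1. The 25 regions at chr10:42364728-42385876 had 334 CPM in SA, 551 in SPH, 567 in METS and 374 in DLD1. The 10 regions at chr18:18510909-18520379 had 402 CPM in SA, 732 in SPH, 603 in METS and 444 in DLD1, and the 10 at chr19:27731883-27740441 had 332 in SA, 574 in SPH, 496 in METS and 361 in DLD1. In all of these SA was the lowest line and DLD1 the next. The highest METS ratio of a gap-side run was at chr2:89855399-89861590, with 17.8 CPM in SA, 35.0 in SPH, 37.4 in METS and 14.6 in DLD1 and a ratio of 2.56 (2.03 to 3.26) in METS.

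Runs on chromosome Y ordered the lines as the gap-side runs did. On chromosome Y the median log2 ratio was -0.08 in SA, 0.84 in SPH and 0.66 in METS over 26 runs. The mitochondrial run of 10 regions had 100.6 CPM in SA, 216 in SPH, 160 in METS and 83.7 in DLD1, where SA was also above DLD1. How reads that match several places were counted is not given in the sources used here, and the part of repeated sequence in these values was not tested.

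H3K79me3, a readout the rule did not use, differed the other way in the gap-side runs. H3K79me3 regions overlapped all 69 gap-side runs, and their summed level was 11521 CPM in SA, 7308 in SPH, 7145 in METS and 10857 in DLD1. SPH and METS were low and SA and DLD1 high, the reverse of H3K4me3. The median log2 ratio to DLD1 was 0.08 in SA, -0.52 in SPH and -0.56 in METS. At chr1:121478492-121485418 H3K79me3 was 2089 CPM in SA, 1255 in SPH, 1238 in METS and 1991 in DLD1, and at chr2:92305497-92326188 it was 396 in SA, 247 in SPH, 249 in METS and 373 in DLD1. The mitochondrial run had 273 CPM of H3K79me3 in SA, 109 in SPH, 114 in METS and 158 in DLD1.

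In arm runs, overlapping H3K79me3 was higher in SPH and METS than in DLD1. H3K79me3 regions overlapped 121 of the 136, with a summed level of 7643 CPM in SA, 12043 in SPH, 10091 in METS and 8905 in DLD1. The median log2 ratio was -0.22 in SA, 0.42 in SPH and 0.28 in METS. Over regions within 5 kb of an arm run the medians were nearer 0, at -0.13 in SA, 0.20 in SPH and 0.04 in METS. Scaling by TMM factors in place of library totals shifted every H3K79me3 log2 ratio by 0.04 in SA, 0.11 in SPH and -0.08 in METS, and the median within 5 kb of arm runs in METS then turned to -0.04. The overlapping medians kept their directions under TMM in arm runs, at -0.18 in SA, 0.53 in SPH and 0.20 in METS, and in gap-side runs, at 0.12 in SA, -0.42 in SPH and -0.64 in METS. Over all stretches with an overlapping H3K79me3 region the TMM medians were -0.17 in SA, 0.33 in SPH and 0.28 in METS, in the same directions as in arm runs.

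H3K79me3 regions lay within 5 kb of 224 runs. Of these, 7 runs were at least 1.5-fold higher in SA and 7 lower, against 2.81% and 7.19% of the 13357 stretches with a region that near. In SPH 25 were higher and 40 lower, against 12.5% and 9.44%, and in METS 23 were higher and 35 lower, against 18.3% and 6.11%. The balance rests on the scaling: with TMM factors SA had 8 higher and 5 lower, SPH 31 higher and 15 lower, and METS 18 higher and 61 lower. Of the arm runs, 128 had such a region. With library totals, arm runs made up 6 of the higher runs in SA, all 25 in SPH and all 23 in METS. The background was 2.68%, 13.1% and 19.1% in those lines, over the 12473 arm stretches with a region that near. The lower arm runs numbered 7 in SA, 10 in SPH and 5 in METS, against 7.49%, 7.71% and 4.79%, while gap-side runs made up 26 of the 40 lower in SPH and 25 of the 35 lower in METS. With TMM factors 5 gap-side runs were lower in SPH and 43 in METS.

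**Figure D4:**
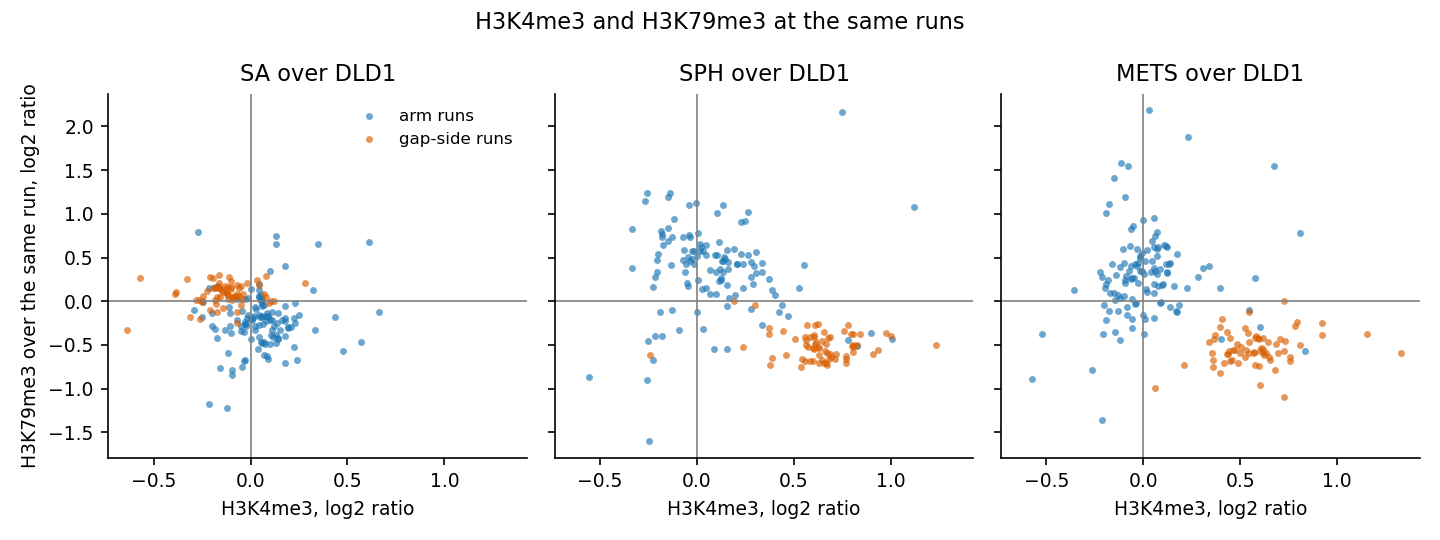
Log2 ratio of overlapping H3K79me3 against log2 ratio of H3K4me3, derivative over DLD1, for runs with an overlapping H3K79me3 region, in panels for SA, SPH and METS (1 point per run). In SPH and METS the gap-side runs sit at higher H3K4me3 and lower H3K79me3, with H3K79me3 medians of -0.52 in SPH and -0.56 in METS, and the arm runs sit at level H3K4me3 and higher H3K79me3, with medians of 0.42 and 0.28.

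At the MIR4740 and BAHCC1 run, overlapping H3K79me3 was 151 CPM in SA, 425 in SPH, 276 in METS and 94.1 in DLD1. At the SCNN1A and LTBR run it was 45.4 CPM in SA, 105 in SPH, 85.3 in METS and 49.5 in DLD1, so SA was not above DLD1 there although its H3K4me3 was. At the MIR200C and MIR141 run it was 37.7 CPM in SA, 63.9 in SPH, 56.9 in METS and 49.7 in DLD1. WNT11 had no H3K79me3 region within 5 kb of its run.

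H3K27me3 was low in the gene bodies that overlap arm runs. It was counted over whole gene bodies, which overlapped 109 of the 136 arm runs and no run of the other classes. The 205 gene-body intervals that overlap a run had a median of 0.194 CPM per kb in SA, 0.178 in SPH, 0.184 in METS and 0.225 in DLD1, against 0.331 in SA, 0.343 in SPH, 0.362 in METS and 0.373 in DLD1 over all 48375 intervals with counts. At 1.5-fold, 3 were higher in SA and 21 lower, against 2.82% and 5.95% of all intervals. Of the SPH intervals 5 were higher and 26 lower, against 3.84% and 8.87%, and in METS 3 were higher and 22 lower, against 3.66% and 5.42%. TMM factors shifted every H3K27me3 log2 ratio by 0.14 in SA, 0.12 in SPH and 0.04 in METS. With them, 4 intervals over runs were higher in SA and 8 lower, and the lower share was 3.90% in SA, 9.76% in SPH and 9.27% in METS, against 3.47% in SA, 6.07% in SPH and 4.65% in METS of all intervals. Lower intervals were thus more frequent than in the background in SPH and METS by either scaling, and in SA mainly with library totals. The intervals over runs were longer, with a median of 15872 bp against 3202 bp over all intervals. Among intervals of 0.5 to 100 kb, with library totals, the lower share over runs was 10.6% in SA, 13.1% in SPH and 11.3% in METS, against 7.24% in SA, 10.9% in SPH and 6.29% in METS of all such intervals. Intervals can overlap each other, and a long interval extends far beyond its run.

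The intervals described next were chosen after their values were seen. Inside the MIR4740 and BAHCC1 run, the interval at chr17:79369275-79375658 had 13.3 CPM of H3K27me3 in SA, 1.27 in SPH, 3.7 in METS and 32.3 in DLD1, while the run's H3K4me3 ratios in the 3 derivatives lay within 1.53 to 1.68. The order of H3K27me3, lowest in SPH and then METS, was that of H3K79me3 turned round, and the H3K4me3 of the run did not separate the derivatives to that degree. The longer interval at chr17:79373540-79433357 had 32.7 CPM in SA, 10.6 in SPH, 21.3 in METS and 51.6 in DLD1.

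METS had the lowest H3K27me3 of the 4 lines at TFAP2A, at PDGFA and in an unnamed interval over the run at HOXA6. The H3K4me3 run of METS stayed within 1.5-fold of DLD1 at each. The TFAP2A interval at chr6:10393419-10419892 had 16.0 CPM in SA, 17.5 in SPH, 5.37 in METS and 15.3 in DLD1, which was 2.85-fold lower in METS than in DLD1 (2.26 to 3.61). PDGFA, a growth factor for mesenchymal cells, had 29.9 CPM of H3K27me3 in SA, 16.7 in SPH, 10.1 in METS and 28.4 in DLD1, and its run had 61.3 CPM of H3K4me3 in SA, 68.4 in SPH, 90.4 in METS and 68.6 in DLD1. METS was thus lowest in H3K27me3 and highest in H3K4me3 at PDGFA. A short interval at chr7:27186985-27192217, over the run at HOXA6, was not the one that the naming gave to HOXA6. It had 1.59 CPM of H3K27me3 in SA, 1.22 in SPH, 0.69 in METS and 2.82 in DLD1, 4.09-fold lower in METS (2.2 to 8.07).

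Other genes had more H3K27me3 in a derivative, while the H3K4me3 run there stayed within 1.5-fold of DLD1. CRNDE, a long noncoding RNA gene beside IRX5, had 6.46 CPM of H3K27me3 in SA, 5.59 in SPH, 1.68 in METS and 2.37 in DLD1. Both mesenchymal lines were above both epithelial lines, at ratios to DLD1 of 2.72 (1.87 to 4.05) in SA and 2.36 (1.61 to 3.51) in SPH, while H3K4me3 of the run was 188 CPM in SA, 182 in SPH, 207 in METS and 207 in DLD1. The interval of GATA6-AS1, the antisense partner of GATA6, had 99 counts in SPH against 9 in DLD1, with the H3K4me3 run at a ratio of 1.15 (1.06 to 1.26) in SPH. SEMA5A, a semaphorin of axon guidance, had 115 CPM of H3K27me3 over its long body in SA, 139 in SPH, 270 in METS and 126 in DLD1, a ratio of 2.14 (2.03 to 2.26) in METS, and the run at its start had 210 CPM of H3K4me3 in SA, 174 in SPH, 170 in METS and 197 in DLD1. H3K4me3 was thus below DLD1 at CRNDE in SA and SPH and at SEMA5A in METS. At GATA6-AS1 it was above DLD1 in SPH.

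**Figure D5:**
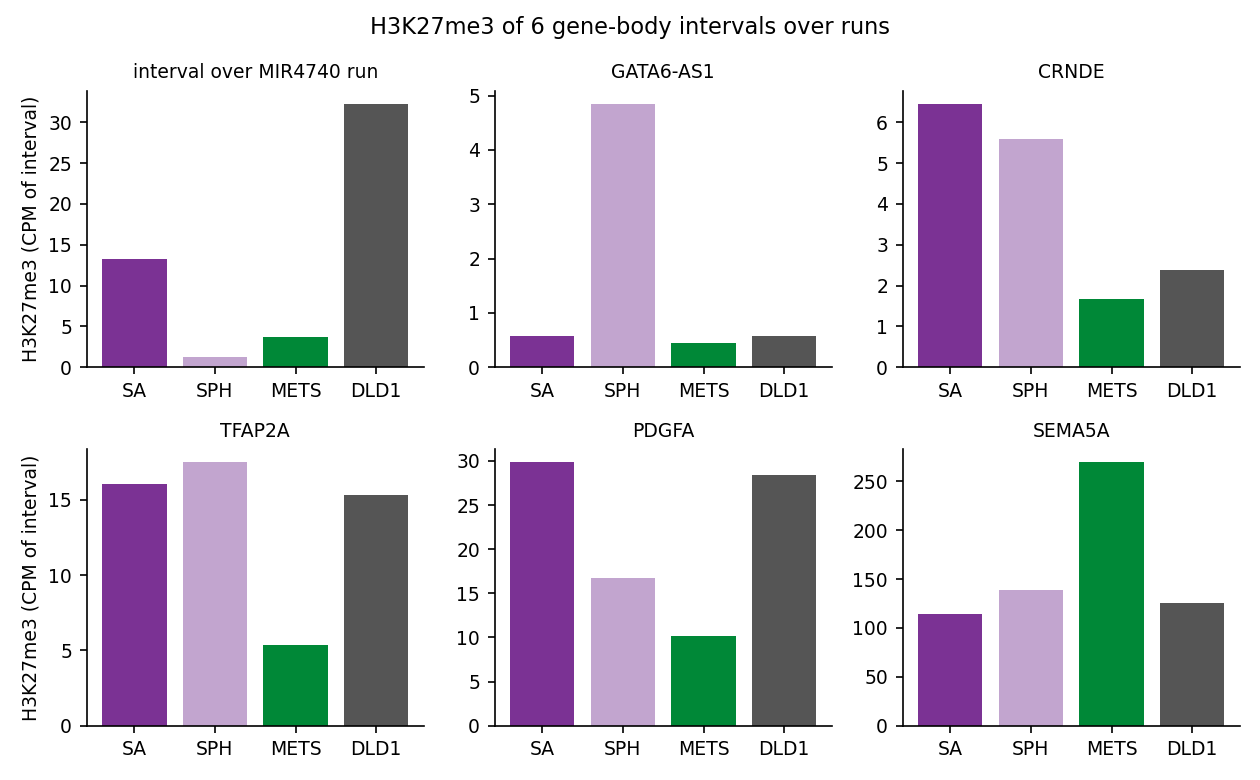
H3K27me3 CPM in SA, SPH, METS and DLD1 (bars from 0) in 6 gene-body intervals that overlap an arm run, each bar 1 library. The interval in the MIR4740 run is lowest in SPH at 1.27 CPM, TFAP2A and PDGFA are lowest in METS at 5.37 and 10.1 CPM, CRNDE is higher in SA and SPH, GATA6-AS1 in SPH, and SEMA5A is highest in METS at 270 CPM.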

How the data were processed

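The authors deposited tables of read counts per region, in whole numbers, for 12 libraries: 3 marks in 4 lines. Per the submitters' processing notes the build is hg19; the aligner, region caller and counter are not given in the sources used here. Nothing marks any library as a replicate. The H3K27me3 table is held in part: it covers gene-body intervals on chromosomes 1 to 19, and 7773 further entries were skipped.

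CPM was computed from these counts with each library's total over all regions. Regions were joined into runs with a gap of at most 1000 bp; 1 region spanning the ends of the mitochondrial genome was kept in totals and left out of runs. Ratios were taken after adding 0.5 CPM to both lines and called at 1.5-fold; printed ratios with intervals have nothing added. Since no annotation of hg19 was given, intervals were matched to RefSeq genes by length and by order along the chromosome. The division of runs at 5 Mb from the longest stretch without a counted region was made after values were seen. Gap-side runs also had to overlap no gene-body interval, and a run that near with such an interval was counted as an arm run. H3K79me3 was summed over regions overlapping a run or within 5 kb of it. SA and SPH were compared with METS and DLD1 by edgeR's quasi-likelihood test, with DESeq2 as an alternative; these steps were tested on simulated data.

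Runs named are the 10 with the most regions and the 10 with the highest CPM in DLD1, up to 5 each way per derivative and for the parting by cell character, and runs on listed genes; any further run or interval was chosen after its values were seen, and runs on chromosome Y are given by class only. The members and lists were chosen with earlier results of these data known. Tools were R 4.3.3, edgeR 4.0.16, DESeq2 1.42.0, Python 3.11.15, pandas 2.3.3, NumPy 2.4.6, SciPy 1.17.1 and matplotlib 3.10.9. Alternatives changed the scaling, the fold, the value added, the gap, the number of regions and the lines in the fit.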

Additional observations from a re-analysis of the deposited data

How the results depend on the processing

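No paired analysis was possible because each line has 1 library per mark and no replicate numbers are shared. With TMM scaling, and with DESeq2 size factors, 4 runs were higher in SA than in DLD1. At 2-fold, SA had 0 runs higher and 0 lower, SPH 9 and 0, and METS 2 and 0. With a fold of 25% above the lower value, 8 were higher and 10 lower in SA, 5 lower in SPH, and 103 higher and 5 lower in METS, with 7 higher and 4 lower in METS than in both SA and SPH. With nothing added, lower runs numbered 1 in SA, 1 in SPH and 0 in METS, and 1 run was higher in METS than in both SA and SPH. The next settings also changed the number of runs, 232 in the main setting, so their counts have other bases. With a gap of 500 bp, which gave 60 runs, SA had 0 higher and 0 lower, SPH 23 and 0, and METS 13 and 0. With a gap of 2000 bp, which gave 313 runs, lower runs numbered 1 in SA and 0 in METS. Of these runs 2 were higher in METS than in both SA and SPH. With 4 or more regions, which gave 613 runs, 6 were higher and 6 lower in SA, 8 lower in SPH and 3 lower in METS. Of these runs 3 were higher in METS than in both SA and SPH. With 8 or more, which left 70 runs, SA had 1 higher and 1 lower, SPH 45 and 0, and METS 29 and 0. Among the 116 runs at or above the median count, SA had 1 higher and 0 lower, SPH 13 and 0, and METS 5 and 0.

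For edgeR, leaving out each line in turn gave 0 to 47 runs higher and 0 to 10 lower. For H3K79me3 at 2-fold, SA had 1 run higher and 2 lower, SPH 6 and 3, and METS 9 and 2. With TMM scaling of H3K79me3, SPH had 31 higher and 15 lower, against 25 and 40 with library totals, so the balance turned, and METS had 18 and 61, against 23 and 35. At 2-fold, higher outnumbered lower in SPH and METS, while with TMM scaling this held in SPH and not in METS. With overlapping regions only, 14 were lower in SA. For H3K27me3 at 2-fold, SA had 1 interval higher and 1 lower, SPH 3 and 3, and METS 1 and 10, and with TMM scaling 8 were lower in SA. The cause of these shifts was not tested. Settings added after seeing the data were the fit on arm stretches only, the counts by place, the TMM medians and background shares, the limit to intervals of 0.5 to 100 kb and the distance that defines gap-side runs. With 1 Mb in place of 5 Mb, 58 runs were gap-side, of which 36 were higher in SPH and 23 in METS.

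Depth limits the runs of few counts, such as the 5S and mitochondrial pseudogene runs. With 1 library per line, a ratio compares libraries, and its interval leaves out the spread between cultures.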
